A study of Mus musculus with 6 samples.

Results

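The 26S proteasome is the chamber in which cells break down proteins tagged with ubiquitin, and the accessibility of the genes that encode it was followed in mouse blood stem cells with and without an intact Dek gene. The genes were chosen by name: protein-coding genes on chromosomes 1 to 19 and X of the mm10 RefSeq table whose symbol starts with Psma, Psmb, Psmc, Psmd, Psme, Psmf or Psmg. There were 51 such genes of 21627. The rule uses symbols and no measured value, but it was set with earlier results of these data known. Psmc3ip, a partner in meiotic recombination, and Psme3ip1 match by symbol only and are not proteasome genes; they were kept in every count. Open chromatin was mapped by ATAC-seq, which inserts sequencing adapters into accessible DNA with the Tn5 transposase, on about 20000 sorted cells per library from bone marrow of C57BL/6 mice 12 weeks old in homeostasis. The gate took CD150-positive, CD48-negative cells of the c-Kit-positive, Sca-1-positive, lineage-negative fraction, which holds the hematopoietic stem cells. Each group had 3 libraries: Dek_fl, with the genotype Dek fl/fl (both alleles floxed, no Cre named), and Dek_cKO, with the genotype Dek fl/fl,Tie2-Cre. All 6 libraries thus carry the floxed alleles, and Cre under Tie2 control acts in blood and endothelial cells, so the deletion is not limited to stem cells. The labels do not say whether the libraries of a group came from separate animals, so each p-value rests on the variation among these libraries alone, and that variation may be technical.

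The proteasome has a barrel, the 20S core, made of rings of alpha subunits (Psma genes) around rings of beta subunits (Psmb genes), and 3 beta subunits, Psmb5, Psmb6 and Psmb7, carry the sites that cut peptide bonds. Interferons and immune cells bring in the immune counterparts Psmb8, Psmb9 and Psmb10, which take the places of Psmb5, Psmb6 and Psmb7 in that order and favour peptides suited to MHC class I display. The 19S cap holds a ring of ATPases (Psmc genes) that unfold and thread the substrate, and non-ATPase subunits (Psmd genes) that bind and remove ubiquitin. Psme genes encode other activators that dock on the core, Psmf1 an inhibitor, and Psmg genes chaperones that assemble the core. Blood stem cells make protein slowly and are known to depend on protein quality control.

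Each library has its own peak list, with 23813 to 73173 peaks, and the values of a list rank peaks only within it. A peak was given to a gene when it came within 1 kb of either annotated gene end, and its fold enrichment over local background and its −log10 p-value were turned into percentiles of the library's own list, where 100 is the strongest peak. Replicate 3 of both groups came from shorter lists (23813 and 27170 peaks) whose deposited score is 10 times the −log10 p-value rather than the −log10 q-value, so it was processed differently from replicates 1 and 2. Dek itself was called at a gene end in every library (percentiles of fold 43.3, 46.4 and 78.3 in Dek_fl and 50.8, 32.8 and 68.3 in Dek_cKO), which does not check the deletion, since the labels do not name the floxed exons. At Tek, the gene of Tie2, the −log10 p-value of the peak was 260, 576 and 56.6 in the libraries labelled Dek_fl and 32.9, 20.5 and 8.59 in those labelled Dek_cKO. These values are not on one scale between lists. Within its own list the peak stood at percentiles of fold of 93.1, 93.7 and 60.2 in Dek_fl and 81.6, 59.2 and 18.1 in Dek_cKO. The peak of the gene that supplies the transgene's control DNA thus ranked higher at each replicate number where no Cre is named, though the groups overlapped in percentile of fold. Directions below are between libraries as labelled. Of 9 stem cell markers, Kit, Tek and Meis1 were called at a gene end in every library, and Slamf1 and Ly6a, which encode CD150 and Sca-1, in 4 and 1. Cd48, whose protein the gate excludes, had one in all 6, as did the erythroid gene Epor and the endothelial gene Kdr, while the endothelial genes Pecam1 and Cdh5 were called in 4 and in none. None of the 3 T cell markers, the 3 B cell markers or the 4 granulocyte markers was called in all 6, and Cd3g, Cd8a, Ms4a1, Elane and Hba-a1 were called in none. The part of other cells in the results was not tested.

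Most proteasome genes had a peak at an end in these cells. A gene-end peak was found for 46, 47 and 45 of the 51 genes in Dek_fl replicates 1, 2 and 3 and for 47, 47 and 45 in Dek_cKO, against 51.4% to 67.7% of all protein-coding genes in the same libraries. In all 6 libraries together, 44 of the 51 were called, beside 48.8% of the 21627 protein-coding genes. The groups did not differ in this count beyond its spread: 46.0 ± 1.0 (SD, n = 3) genes in Dek_fl and 46.3 ± 1.2 in Dek_cKO. All 11 non-ATPase and all 6 ATPase genes of the 19S cap, 6 of 7 alpha genes, all 4 beta genes without a catalytic site and all 4 chaperone genes were called in every library. Psmb6, Psmd9 and Psma8 were called in some libraries, and Psma6, Psmf1, Psmb11 and Psme2b in none. In the plot of all members by role, most points lie toward the right, and triangles (replicate 3) lie to the left of the other libraries for many genes.

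**Figure D1:**
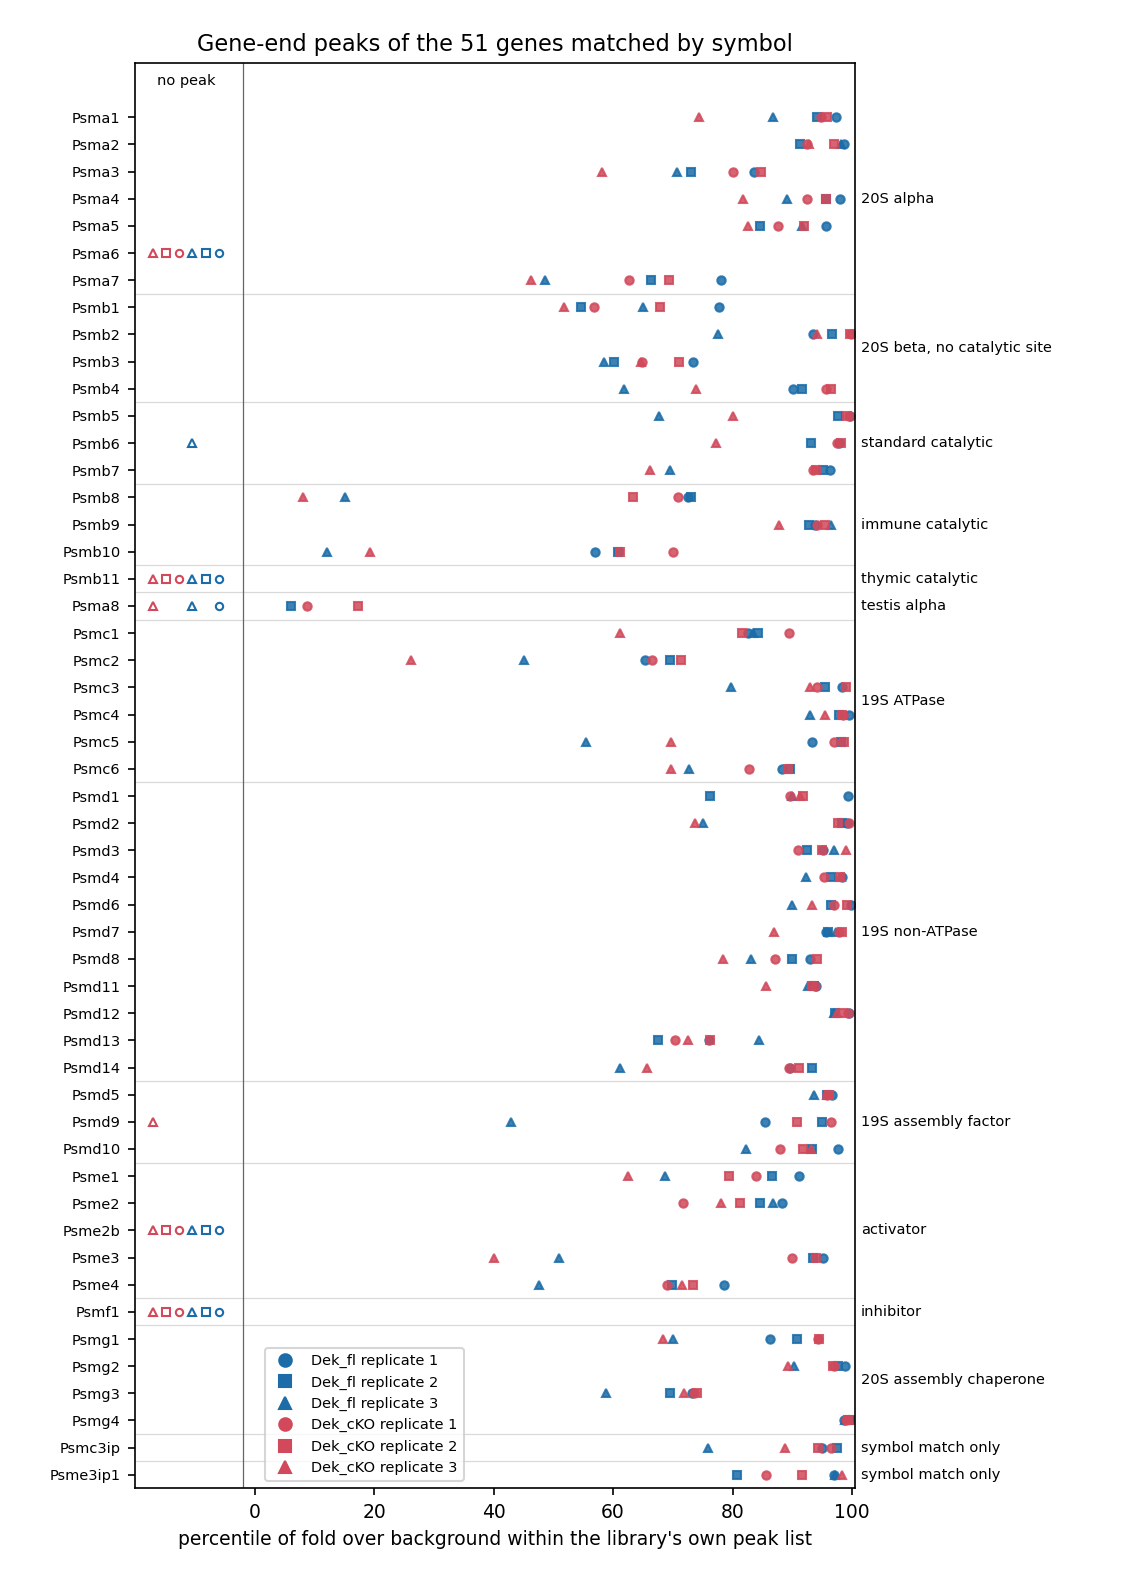
Each row is one of the 51 genes, grouped by role, and each point gives the percentile of fold of its gene-end peak within one library's own list (filled points), for Dek_fl (blue) and Dek_cKO (red), replicates 1 to 3; open points at the left mark a library with no gene-end peak. Psmg4 sits between 98.6 and 99.6 in every library, while Psmb8 and Psmb10 fall to between 8.13 and 19.3 in the replicate 3 libraries.

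The peaks that were called stood high in their lists. The median percentile of fold over the called proteasome genes was 94.5, 92.8 and 79.7 in Dek_fl and 92.4, 94.0 and 78.1 in Dek_cKO, where the median over all called protein-coding genes was 79.7, 75.4, 69.6, 76.7, 78.2 and 70.2 in the same order. By −log10 p-value the medians were 93.1, 94.9, 79.0, 94.1, 94.8 and 80.3 for the proteasome genes and 85.4, 88.6, 73.1, 88.6, 88.5 and 74.3 for all genes, so the distance was smaller on that scale. Both medians cover only genes with a peak. Proteasome peaks had median widths of 690 to 1455 bp against 526 to 971 bp for all peaks, which include peaks away from genes. Widths at the ends of other genes were not compared. The median distance from summit to nearest listed start was 58 to 114 bp across libraries. Psmg4, a chaperone of the 20S core, had the highest mean percentile of fold (99.1), with 98.6, 99.6 and 98.9 in Dek_fl and 99.002, 99.3 and 99.5 in Dek_cKO. It was followed by Psmd12, a scaffold subunit of the 19S lid, at 99.5, 97.2, 97.1, 99.4, 98.4 and 97.6, and by the ATPase gene Psmc4 at 99.5, 97.8, 93.0, 98.5, 98.3 and 95.4. These 3 genes varied little between libraries, and neither group stood apart.

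Among the alpha genes, which form the outer rings and the gate of the core, the mean percentile of fold over the 6 libraries ran from 61.9 at Psma7 to 95.0 at Psma2. Psma4 had 98.01, 95.7 and 89.1 in Dek_fl and 92.4, 95.6 and 81.8 in Dek_cKO, so the groups overlapped. Among the beta genes without a catalytic site the mean ran from 62.3 at Psmb1 to 93.5 at Psmb2, and Psmb4 had 90.1, 91.6, 61.9, 95.6, 96.5 and 73.9. The 6 ATPase genes spanned a wide range, from 57.4 at Psmc2 to 97.1 at Psmc4. Psmc2 had 65.3, 69.5 and 45.1 in Dek_fl and 66.5, 71.4 and 26.3 in Dek_cKO, and its replicate 3 values were the lowest in both groups. Psmc3, another ATPase gene, had 98.4, 95.5, 79.7, 94.2, 98.9 and 93.0. The 11 non-ATPase genes ran from 74.5 at Psmd13 to 98.2 at Psmd12, the 4 core chaperone genes from 70.2 at Psmg3 to 99.1 at Psmg4. Of the 3 genes of 19S assembly factors, Psmd5 and Psmd10 had means of 95.6 and 91.0, and Psmd9 had 85.4, 95.0 and 42.9 in Dek_fl and 96.4 and 90.7 in Dek_cKO replicates 1 and 2, with no peak in replicate 3.

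The standard catalytic genes ranked above 2 of their 3 immune counterparts in every library. Psmb5, the chymotrypsin-like subunit, had percentiles of fold of 99.6, 97.6 and 67.7 in Dek_fl and 99.5, 99.2 and 80.1 in Dek_cKO. Its immune counterpart Psmb8 had 72.6, 73.1 and 15.1 in Dek_fl and 70.9, 63.4 and 8.13 in Dek_cKO. Within a library Psmb5 exceeded Psmb8 by 24.6 to 72.0 points, in 6 of 6 libraries. Psmb7, the trypsin-like subunit, had 96.3, 95.1, 69.5, 93.4, 94.0 and 66.1, and its counterpart Psmb10 had 57.1, 60.8, 12.1, 70.0, 61.2 and 19.3. Here the gap was 23.5 to 57.4 points, again in 6 of 6. The replicate 3 values of Psmb10 came from a different peak in each group. The remaining couple did not follow: Psmb6, the caspase-like subunit, had 97.9 and 93.1 in Dek_fl replicates 1 and 2, no peak in replicate 3, and 97.5, 98.1 and 77.2 in Dek_cKO, while Psmb9 had 93.8, 92.8, 96.6, 94.2, 95.5 and 87.8. Psmb6 exceeded Psmb9 by 0.273 to 4.04 points in 4 of the 5 libraries with both peaks and lay 10.7 points below it in Dek_cKO replicate 3. By −log10 p-value Psmb9 ranked above Psmb6 in all 5, the difference Psmb6 minus Psmb9 being -3.02 to -27.0 points.

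The gap between the medians of the standard and immune genes was seen in both genotypes. It was 25.3, 22.1 and 53.5 points of fold percentile in Dek_fl (33.6 ± 17.3, SD, n = 3) and 26.6, 34.7 and 57.8 points in Dek_cKO (39.7 ± 16.2), so the groups overlapped and differed by less than their spread. In Dek_fl replicate 3, where Psmb6 had no peak, the standard median rests on Psmb5 and Psmb7 alone. At each replicate number the gap by fold was the wider one in Dek_cKO, and by −log10 p-value at 2 of 3. With peaks within 2 kb of a gene end, which took in the stronger Psmb10 peak of Dek_cKO replicate 3, the gap by fold there was 45.0. In Dek_fl replicate 3 it stayed at 53.5. No test was made of the gap. By −log10 p-value it was 10.3, 3.98 and 33.4 points in Dek_fl and 4.97, 10.3 and 39.7 points in Dek_cKO. The widest gaps belonged to replicate 3 of each group, the shorter lists, and without replicate 3 the mean over 4 libraries was 27.2 points by fold and 7.38 by −log10 p-value, against 36.7 and 17.1 over all 6. When only peaks with a −log10 q-value of at least 10 were kept, Psmb8 and Psmb10 were no longer called in replicate 3 of either group, Psmb9 alone stood for the immune genes there, and the mean gap was 18.8 by fold and -6.86 by −log10 p-value. With lists of equal length the mean gap by fold was 54.7; there Psmb8 was not called in Dek_cKO replicate 3, which then had the smallest gap (26.0), and the widest was in Dek_cKO replicate 2 (77.5).

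**Figure D2:**
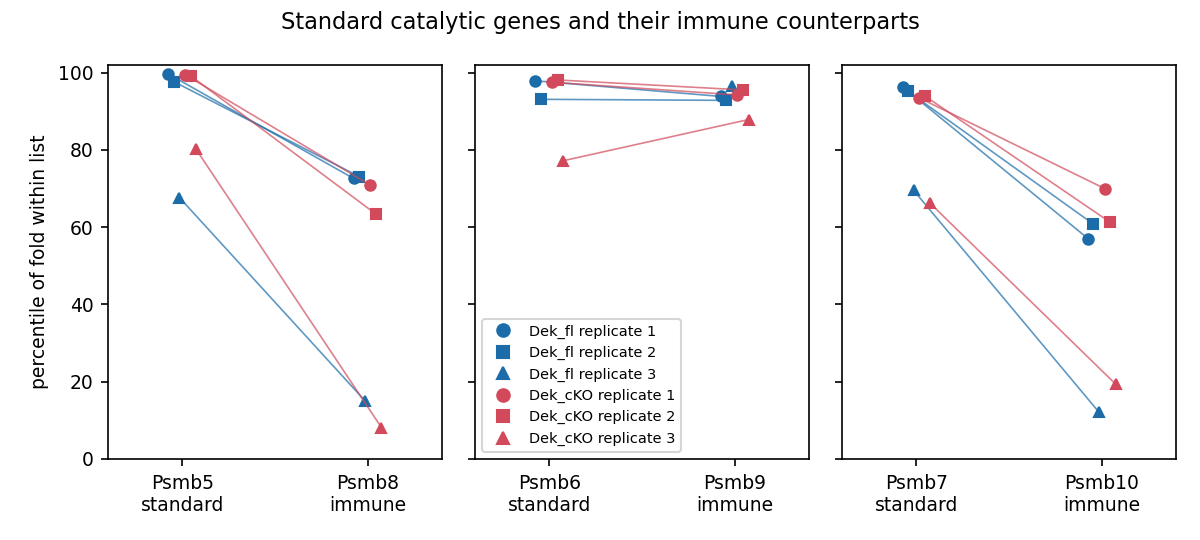
Percentile of fold within each library's own list (vertical axis) for the standard genes Psmb5, Psmb6 and Psmb7 and the immune gene that takes the place of each, with a line joining the 2 genes of one library; Dek_fl in blue, Dek_cKO in red. Lines fall from Psmb5 to Psmb8 and from Psmb7 to Psmb10 in all 6 libraries and are nearly level from Psmb6 to Psmb9, except in Dek_cKO replicate 3.

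The 250 bases before the start of these genes are shown because their peaks cover this stretch or lie beside it. They come from the RefSeq promoter table (build GRCm38.p6, the same coordinates as mm10), which lists no start for Psmb7. Capitals mark matches to motifs searched on both strands: the antioxidant response element core TGACNNNGC in Psmb5 and Psmb6, the Sp1 box GGGCGG in Psmb6 and Psmb9, CCAAT in Psmb9 and the interferon gamma activated site TTCNNNGAA in Psmb8. Psmb10 held none of the 8 motifs searched in this window, which says only that these letters are not there.
Psmb5 (chr14:54617996-54618245, minus strand): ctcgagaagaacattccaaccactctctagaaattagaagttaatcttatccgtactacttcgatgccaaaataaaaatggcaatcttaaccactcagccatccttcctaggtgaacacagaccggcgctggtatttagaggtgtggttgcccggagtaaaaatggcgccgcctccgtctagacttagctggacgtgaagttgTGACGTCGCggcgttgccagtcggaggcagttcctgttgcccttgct
Psmb6 (chr11:70525107-70525356, plus strand): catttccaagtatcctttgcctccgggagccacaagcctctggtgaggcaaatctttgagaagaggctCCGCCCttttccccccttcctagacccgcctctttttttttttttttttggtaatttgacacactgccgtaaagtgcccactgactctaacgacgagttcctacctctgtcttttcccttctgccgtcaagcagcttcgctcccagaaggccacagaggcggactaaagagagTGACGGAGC
Psmb8 (chr17:34197945-34198194, plus strand): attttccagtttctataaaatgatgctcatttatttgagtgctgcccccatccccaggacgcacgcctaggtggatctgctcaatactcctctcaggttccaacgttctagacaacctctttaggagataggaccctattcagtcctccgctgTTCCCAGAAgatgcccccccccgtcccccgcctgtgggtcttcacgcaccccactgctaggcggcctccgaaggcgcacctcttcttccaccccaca
Psmb9 (chr17:34187331-34187580, minus strand): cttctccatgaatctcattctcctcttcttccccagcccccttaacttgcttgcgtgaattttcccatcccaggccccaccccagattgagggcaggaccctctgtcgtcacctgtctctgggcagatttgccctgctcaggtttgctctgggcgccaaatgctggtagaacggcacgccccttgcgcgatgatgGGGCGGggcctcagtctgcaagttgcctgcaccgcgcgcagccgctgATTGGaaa
Psmb10 (chr8:105938393-105938642, minus strand): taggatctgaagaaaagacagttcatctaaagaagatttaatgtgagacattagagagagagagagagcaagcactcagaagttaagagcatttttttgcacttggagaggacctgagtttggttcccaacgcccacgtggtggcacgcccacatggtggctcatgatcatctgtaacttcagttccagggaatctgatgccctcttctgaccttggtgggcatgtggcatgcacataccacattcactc
GC content in these stretches was 49.6% in Psmb5 with 15 CG steps, 51.6% in Psmb6 with 10, 55.6% in Psmb8 with 10, 59.6% in Psmb9 with 12 and 46.8% in Psmb10 with 3. The summits of the Psmb5 peak lay 68 to 277 bp before the start, those of Psmb6 14 to 103 bp before it and those of Psmb9 107 to 170 bp before it. These fell within the printed stretches except at Psmb5 in Dek_cKO replicate 3, whose summit was the one 277 bp away. At Psmb10 the summit lay inside the gene in all 6 libraries, 230 to 1271 bp after the start, and at Psmb8 it moved between 543 bp before and 132 bp after. In replicate 3 Psmb10 had 2 peaks, and the one used was the inner peak in Dek_fl and the one nearer the start in Dek_cKO. The inner peak of Dek_cKO lay outside the 1 kb window. The inner peak stood at percentiles of fold of 12.1 in Dek_fl and 32.2 in Dek_cKO, the other at 5.75 and 19.3. The Psmb10 peaks used were 370 bp wide in Dek_fl and 366 bp in Dek_cKO. Both widths were below the medians of 559 and 526 bp over all peaks of those lists. That of Psmb8 was 999 and 587 bp wide, above them.

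Psmb9 and Psmb8 flank Tap1 within the MHC class II region of chromosome 17, and their peaks are shared with it. Psmb9 (gene ID 16912, chromosome 17, 34182030 to 34187330) starts 226 bp from the start of Tap1, which encodes one chain of the transporter that carries peptides into the endoplasmic reticulum, so a peak over one start covers the other. The folds of this shared peak were 7.995, 8.04 and 14.8 in Dek_fl and 9.35, 10.6 and 13.1 in Dek_cKO. Psmb8 (gene ID 16913, 34198195 to 34201454) starts 970 bp beyond the end of Tap1, and its folds were 5.68, 6.03, 5.39, 6.57, 6.33 and 5.05. Without Psmb9 the mean gap between standard and immune genes was 40.4 points by fold, an alternative chosen after the shared peak was seen. From 5 kb outside Psmb9 to 5 kb outside Tap2, the partner of Tap1, the lists held 5, 5 and 4 peaks in Dek_fl and 6, 7 and 3 in Dek_cKO.

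**Figure D3:**
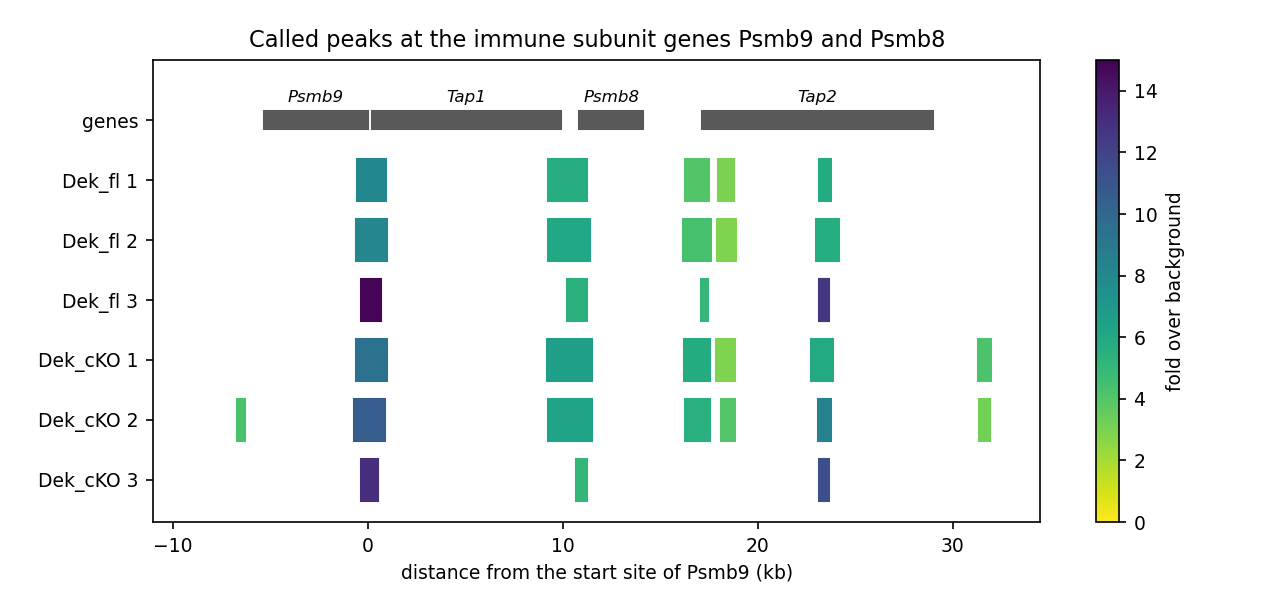
Called peaks (boxes, coloured by fold over background) around Psmb9, Tap1, Psmb8 and Tap2 in each library, against distance from the Psmb9 start in kb; grey bars are the annotated genes. The peak at the joint start of Psmb9 and Tap1 is present in all 6 libraries with folds of 7.995 to 14.8, and the peak over the start of Psmb8 in all 6 with folds of 5.05 to 6.57.

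The core genes restricted to thymus and testis had a weak peak or none. Psmb11, the beta subunit of the thymus, had no gene-end or start-site peak in any library, although it lies 7315 bp from Psmb5, whose own peak was strong. Psma8, the alpha subunit of the testis, had no peak in Dek_fl replicates 1 and 3 or in Dek_cKO replicate 3. In Dek_fl replicate 2 and Dek_cKO replicates 1 and 2 its peak was weak, at percentiles of fold of 6.18, 8.78 and 17.3 and folds of 2.44, 2.79 and 3.39. It was absent from all 6 lists once they were cut to the 23809 strongest peaks.

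The 4 activator genes with a peak in every library had mean percentiles of fold from 68.3 at Psme4 to 81.8 at Psme2. Psme1 and Psme2, which encode the interferon-inducible PA28 alpha and beta subunits, lie 5913 bp apart on chromosome 14. Psme1 had percentiles of fold of 91.1, 86.6 and 68.7 in Dek_fl and 83.9, 79.3 and 62.5 in Dek_cKO. Psme2 had 88.4, 84.7 and 86.8 in Dek_fl and 71.7, 81.3 and 78.1 in Dek_cKO. All 3 Dek_fl values of Psme2 were above all 3 Dek_cKO values, whereas Psme1 overlapped. Psme3, the nuclear PA28 gamma, had 95.2, 93.5, 50.97, 89.9, 94.0 and 40.1, and Psme4, the PA200 activator, had 78.5, 69.8, 47.6, 69.0, 73.3 and 71.6. Psme2b had no peak in any library. How reads that map to both Psme2 and Psme2b were treated is not stated in the labels. Set against the remaining 20S and 19S subunit genes, the 3 immune catalytic genes together with Psme1 and Psme2 had a mean gap of 13.7 points by fold, smaller than the gap within the catalytic genes.

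Psma6 and Psmf1 had no gene-end peak, but each had one at a start site inside the annotated gene. Psma6 (gene ID 26443, chromosome 12, 55384222 to 55418459) has 2 listed starts 14603 bp apart. The upstream one had no peak in any library, and the inner one, at 55398825, had a peak in all 6, with folds of 9.20, 8.62 and 14.3 in Dek_fl and 10.1, 12.2 and 12.8 in Dek_cKO. In their own lists these peaks stood at 98.3, 95.7, 95.4, 96.8, 98.9 and 86.7. The bases before the 2 starts are shown since one was called in every library and the other in none, with matches to CCAAT in capitals.
Psma6, upstream start (chr12:55383972-55384221, plus strand): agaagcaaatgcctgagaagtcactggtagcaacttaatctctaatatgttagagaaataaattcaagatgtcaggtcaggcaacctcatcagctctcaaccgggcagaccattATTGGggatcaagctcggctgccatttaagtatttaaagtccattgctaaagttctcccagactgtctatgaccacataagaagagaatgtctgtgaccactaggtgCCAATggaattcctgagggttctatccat
Psma6, inner start (chr12:55398575-55398824, plus strand): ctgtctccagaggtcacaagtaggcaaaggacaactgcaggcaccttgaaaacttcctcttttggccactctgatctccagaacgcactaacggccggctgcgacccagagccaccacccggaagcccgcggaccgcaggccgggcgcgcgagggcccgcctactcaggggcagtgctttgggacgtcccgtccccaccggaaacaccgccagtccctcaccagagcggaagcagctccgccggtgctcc
The uncalled start had 42.8% GC and 2 CG steps before it, the called one 65.6% and 20. Psmf1 (gene ID 228769, chromosome 2), the inhibitor of the core known as PI31, has its listed start 2889 bp inside the annotated gene. It carried a peak in all 6 libraries, with percentiles of fold of 87.2, 95.8, 70.2, 96.5, 97.1 and 65.2. Counting listed starts as well as gene ends, a choice made after these genes were seen, 46 of the 51 genes had a peak in all 6 libraries. At listed starts alone, 39 of the 43 genes with one were called in all 6, beside 51.7% of 17273 protein-coding genes. Psma3 had 2 such peaks in every library: one at its outer end, which also covers the transfer RNA gene n-TKctt17, and one at its listed start 5340 bp inside (percentiles of fold of 87.5, 80.8, 98.6, 79.8, 88.9 and 83.9).

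**Figure D4:**
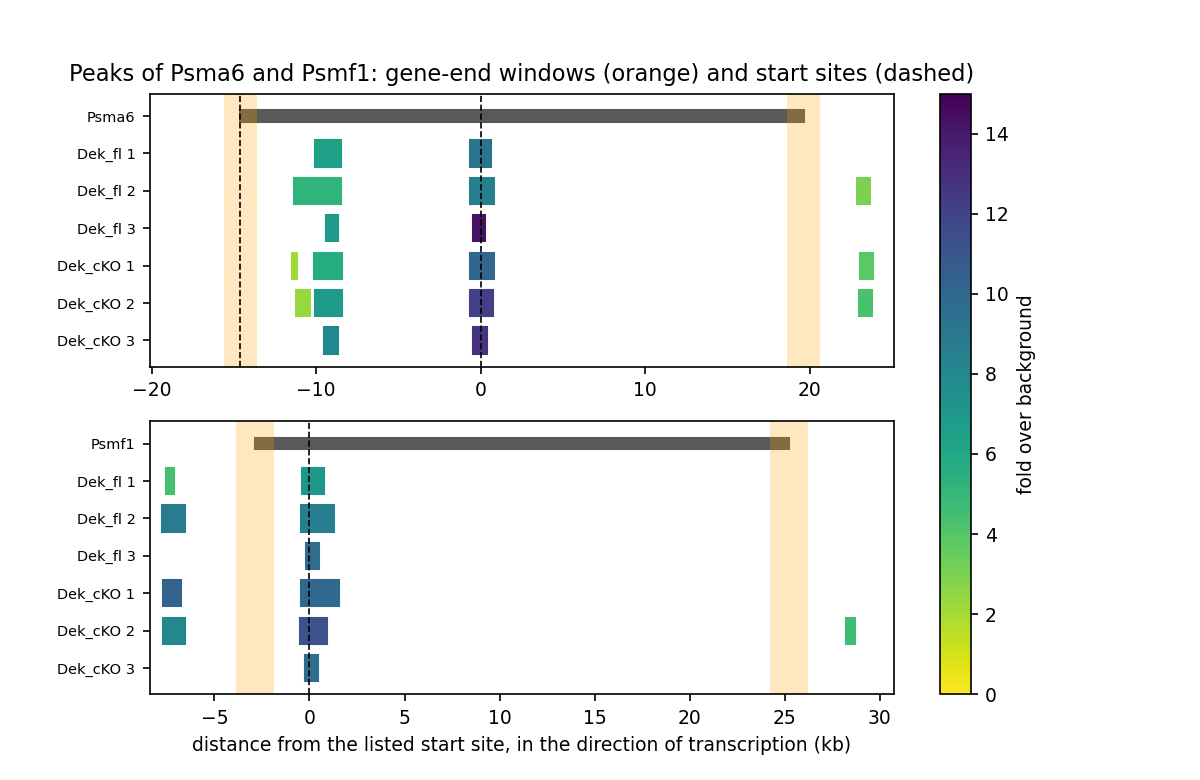
Called peaks (boxes, coloured by fold over background) in each library at Psma6 (top) and Psmf1 (bottom), against distance in kb from the inner start of Psma6 and the listed start of Psmf1; dashed lines are listed starts, grey bars the annotated genes and orange bands the windows of 1 kb around gene ends. In all 6 libraries a peak sits on the start at distance 0, with folds of 8.62 to 14.3 at Psma6, and none touches an orange band.

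Between the genotypes, the proteasome genes moved in both directions by small amounts. Over the 44 genes called in all 6 libraries, the mean percentile of fold was 84.2 in Dek_fl and 83.8 in Dek_cKO, and the median of the differences, Dek_cKO minus Dek_fl, was -0.30 points (from -9.57 at Psme2 to 8.62 at Psmb2), beside 0.261 over 10548 protein-coding genes. The difference was positive for 21 genes and negative for 23, that is 47.7% positive against 52.6% of all genes. By −log10 p-value the median was 0.272 points, beside 1.07 for all genes, and 24 of 44 were positive (54.5% against 67.7%). The sign of both medians depended on the libraries used: leaving out each in turn moved the first between -3.09 and 2.15 and the second between -4.32 and 5.37. Psme2 was the only one of the 44 whose groups did not overlap in percentile of fold, lower in Dek_cKO, beside 0.986% of 10548 genes in that direction. None was higher in Dek_cKO without overlap, beside 1.61%. By −log10 p-value none was apart in either direction, beside 1.46% higher and 0.237% lower over all genes. With 3 libraries against 3, an exact two-sided permutation test cannot give a p below 0.1.

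The rank test gave no call at any proteasome gene. For each of the 19683 regions called in all 6 libraries, the ranks of fold within a library were turned into normal scores and compared between the genotypes with limma, with p-values adjusted over all regions. No region passed an adjusted p of 0.05 by fold, 0% higher and 0% lower. At an unadjusted p under 0.05, 68 regions were higher and 19 lower (0.442%). By −log10 p-value again 0% passed in either direction, with 57 higher and 49 lower at that unadjusted level (0.539%). Both shares are smaller than a level of 0.05 gives when nothing differs. The fit was thus conservative, and its lack of calls does not show that the groups were alike. Once replicate number entered the fit as a block, 585 regions were higher and 289 lower by fold at the unadjusted level. After adjustment 1 region was higher by fold, at Marveld2, and 1 was lower by −log10 p-value, at Tek, and neither is a proteasome gene. Of the 44 proteasome regions at gene ends, 14 had a difference above 0 by fold and 12 by −log10 p-value, that is 31.8% and 27.3%, beside 47.3% and 49.5% of all regions. On the percentile scale above, 21 and 24 of the genes were positive. Their median difference in rank score was -0.14 by fold, beside -0.02 over all regions, and -0.07 by −log10 p-value, beside -0.003.

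Among the 44 regions the largest difference in rank score was at Psmb2, which encodes a beta subunit without a catalytic site; in points of fold percentile the difference at Psme2 was larger. Its gene-end region (chromosome 4, 126677124 to 126678316) covers the outer end of the gene, which the annotation places at 126677637 to 126709715. Psmb2 had percentiles of fold of 93.5, 96.6 and 77.6 in Dek_fl (89.2 ± 10.2, SD, n = 3) and 99.7, 99.6 and 94.2 in Dek_cKO (97.9 ± 3.2). Dek_cKO was above Dek_fl at each replicate number, by a mean of 4.66 points in replicates 1 and 2 and by 16.5 in replicate 3, but Dek_cKO replicate 3 lay below Dek_fl replicate 2, so the groups overlapped. The folds were 7.93, 8.85 and 10.7 in Dek_fl and 12.4, 13.3 and 14.7 in Dek_cKO. Folds of separate lists are not on one scale. The median fold over all peaks was 4.40, 4.56 and 7.85 in Dek_fl and 5.05, 5.32 and 8.31 in Dek_cKO, so it too was higher in Dek_cKO at each replicate number. The difference in rank score was 1.09 by fold (SE 0.38, limma unadjusted p = 0.017, adjusted p = 0.99996) and 0.73 by −log10 p-value (SE 0.36). With the replicate block its adjusted p by limma was 0.367 by fold, and with a term for replicate 3 against the others 0.982, so it did not pass in these fits either.

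Psme2 moved the other way without passing. Its region (chromosome 14, 55590530 to 55592313) also lies at the end of Rnf31, which encodes a ubiquitin ligase of the linear chain complex. The mean percentile of fold was 86.6 ± 1.9 (SD, n = 3) in Dek_fl and 77.0 ± 4.9 in Dek_cKO, with a difference, Dek_cKO minus Dek_fl, of -10.0 points in replicates 1 and 2 and -8.67 in replicate 3. The difference in rank score was -0.52 by fold (SE 0.34) and -0.65 by −log10 p-value (SE 0.25, limma unadjusted p = 0.032, adjusted p = 0.99993). Next by p among the lower regions were Psma4 (-0.44 by fold, SE 0.31) and Psme1 (-0.42, SE 0.30). The peak of Psma4 also came within 1 kb of an end of AY074887 and Hykk, and that of Psme1 of Fitm1. Psmb4 (0.40, SE 0.35) and Psmb10 (0.31, SE 0.34) came next among the higher ones, and without Dek_fl replicate 3 they were 0.20 and 0.061, while Psmb4 was 0.64 without Dek_cKO replicate 3. By −log10 p-value, Psmc3 was among the 3 higher regions of smallest p (0.16, SE 0.29). None of these had an unadjusted p under 0.05.

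**Figure D5:**
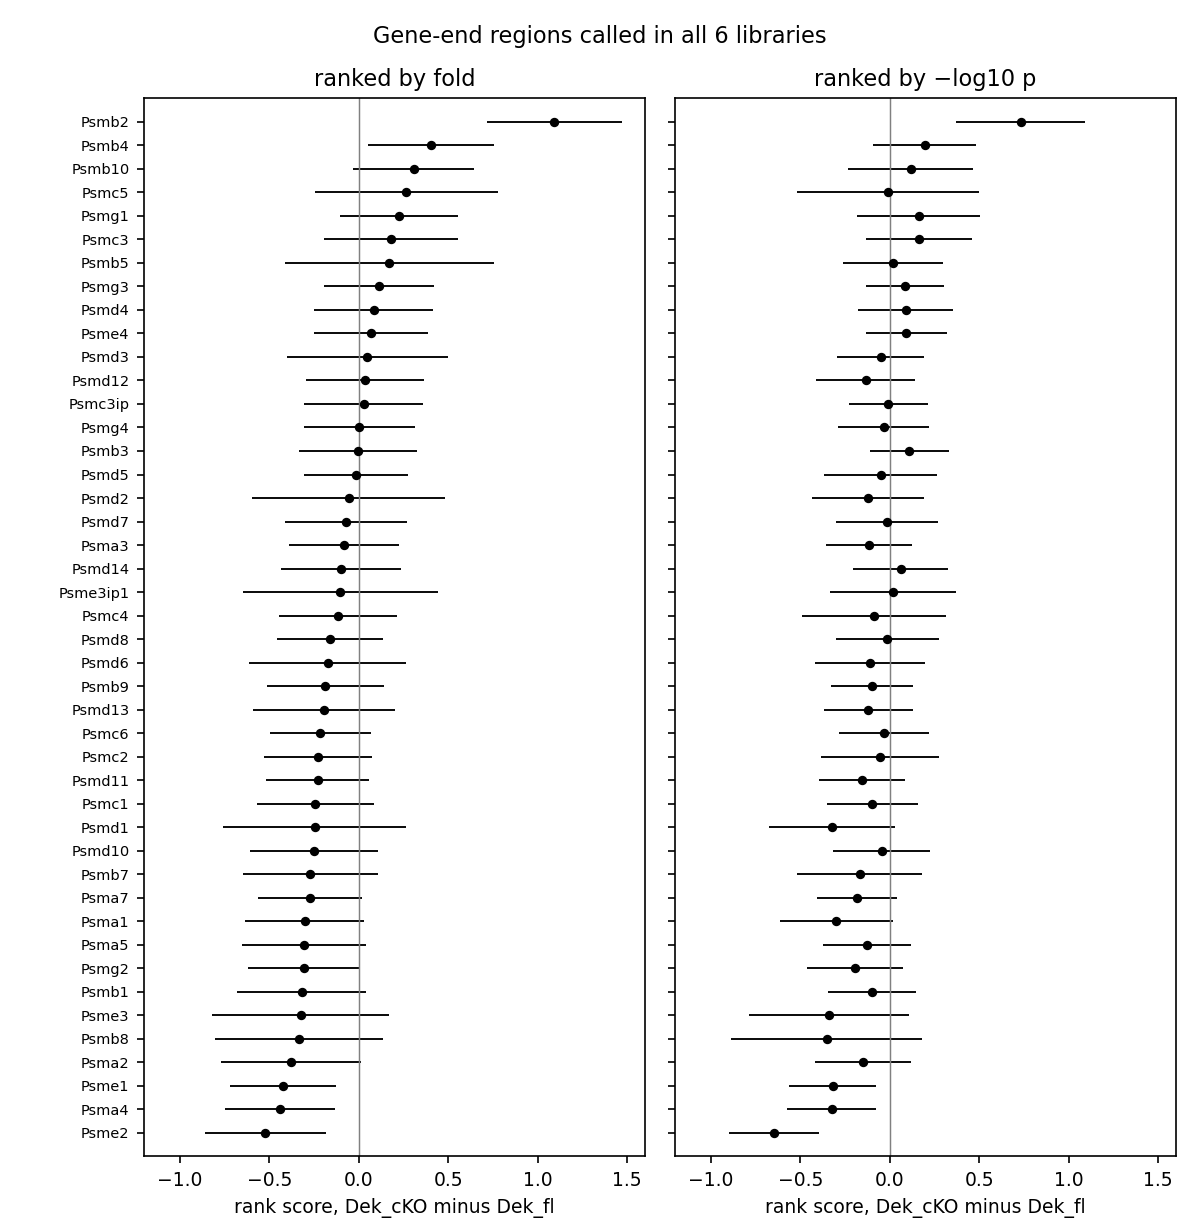
Difference in rank score, Dek_cKO minus Dek_fl, with its standard error from limma (bars), for the 44 proteasome gene regions called in all 6 libraries, ranked by fold (left) and by −log10 p-value (right), genes in the order of the left panel. Psmb2 lies farthest to the right at 1.09 and Psme2 farthest to the left at -0.52 by fold, and no region passed the adjusted threshold.

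The promoters had no single motif in common. Of 51 genes, 43 had a listed start in the promoter table, and the 250 bases before it had a median GC content of 57.6% and 14 CG steps, beside 55.6% and 10 over 17273 protein-coding genes. The antioxidant response element core, the site read by Nfe2l1 (the factor that induces proteasome genes when the proteasome is blocked), was found in 5 genes (Psmb5, Psmb6, Psmc6, Psmd9 and Psmd12), 11.6% against 12.1% of all genes. The Sp1 box was in 23 genes (53.5% against 46.3%) and CCAAT in 16 (37.2% against 39.9%). The ETS core CCGGAAGT was in 5 genes, Psmc1, Psmc2, Psmd6, Psmd12 and Psme4 (11.6% against 4.31%). The cyclic AMP response element TGACGTCA was in none (0% against 2.23%), and the activated site of interferon gamma in Psmb8 and Psmg1 (4.65% against 7.73%). The interferon-stimulated response element core was in Psmb3, Psmd4 and Psmd9 (6.98% against 3.51%) and in none of the 3 immune catalytic genes. The nuclear respiratory factor 1 motif was in Psma2 alone (2.33% against 1.22%).

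Some of these peaks lie near more than one gene. For 17 of the 44 genes called in all 6 libraries, the peak also lay within 1 kb of an end of another protein-coding gene (38.6%, beside 31.1% of the 10548 protein-coding genes called in all 6), so the signal cannot be assigned to one of them. Psmb1 shared it with Tbp (the TATA-box binding protein), Psma2 with Mrpl32, Psma7 with Ss18l1, Psmc2 with Dnajc2, Psmc5 with Ftsj3, Psmd13 with Sirt3 and Psmb3 with Pcgf2. The genes are also spread over the genome, with 10 on chromosome 11 and 6 each on chromosomes 2 and 14.

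Genes that work with the proteasome were also called at their ends. In a list of 25 partners (ubiquitin receptors, deubiquitinases, ubiquitin genes and regulators), 24 were matched. Of these 23 were called at a gene end in every library, beside 48.8% of all protein-coding genes, and Ecpas was called in none. The median percentile of fold of the partners was 87.6, 76.2 and 69.7 in Dek_fl and 84.0, 84.7 and 65.5 in Dek_cKO. Over all called protein-coding genes it was 79.7, 75.4, 69.6, 76.7, 78.2 and 70.2 in the same order. The partners were thus close to all genes in Dek_fl replicates 2 and 3 and below them in Dek_cKO replicate 3. Nfe2l1 had 87.7, 76.2, 74.9, 81.4, 79.9 and 75.4. Pomp, the chaperone that matures the core, had 89.8, 79.1, 50.3, 86.7, 82.0 and 54.8. Of 17 genes of class I antigen processing and its inducers, 16 were called in all 6 libraries, among them Tap1 and B2m, beside the same 48.8%. The last was Tap2, called in 3 Dek_fl and 2 Dek_cKO libraries. The medians of these class I genes were 84.7, 82.2 and 74.3 in Dek_fl and 83.8, 86.2 and 69.2 in Dek_cKO. Psmb8 and Psmb10 lay below these medians in all 6 libraries, whereas Psmb9, whose peak is shared with Tap1 of the list, lay above them in all 6. Low ranks also occurred within the list, as at Irf2 with 45.7, 45.0 and 5.96 in Dek_fl and 39.9, 58.6 and 31.9 in Dek_cKO.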

How the data were processed

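Peak lists of 6 ATAC-seq libraries were analysed. The authors deposited 1 list per library, called separately and not pooled. The submitters' processing notes name mm10, MACS2, Bowtie2 and Picard, without versions or settings, and do not say whether reads were shifted for Tn5. Per peak, the authors deposited a score, a fold (ratio of summit to local background), and a −log10 p-value and −log10 q-value. Read depth is not known, so no interval or floor is given, and a region without a peak is not shown to be closed. Only peaks on chromosomes 1 to 19 and X were used. The peak of a gene was the one of highest −log10 p-value within 1 kb of a gene end, and percentiles are 100 times its rank over the list's length. Peaks sharing 1 bp or more were merged into 84592 regions, and 19683 had a peak in every library. Normal scores of the ranks were compared with limma 3.58.1 (R 4.3.3) with Benjamini-Hochberg adjustment. The fit was first tried on simulated scores with independent noise in each library. These lacked the difference of replicate 3 from the others, so they do not show how the fit performs with it. Deviations from group means of same-numbered libraries correlated at 0.272, 0.522 and 0.740 by fold and 0.412, 0.511 and 0.714 by −log10 p-value, so the replicate number was also fitted as a block. The labels give no reason for the pairing, and Dek_fl replicate 1 correlated slightly more with Dek_cKO replicate 2 (0.307 and 0.415). Dek_fl replicate 2 correlated more with Dek_cKO replicate 1 by fold (0.573), though not by −log10 p-value (0.499). Alternatives were other distances (500 bp, 2 kb), a −log10 q-value of at least 10, equal-length lists of 23809 peaks, summits inside the window, the peak of highest fold, wider classes, regions merged by summits within 250 bp, ranks on a 0 to 100 scale, a batch term and leaving out each library. Values in every library are given for the catalytic, thymic, testis, activator and inhibitor genes, for genes not called in all 6 libraries, for the 3 smallest p in each direction of each rank test, and for the 3 highest and lowest mean percentiles. Members and lists were chosen with earlier results of these data known. The series design text speaks of duplicates, while 3 libraries per group are labelled. Some genes of the lists are not reported here.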

Additional observations from a re-analysis of the deposited data

How the results depend on the processing

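The number of proteasome genes with a gene-end peak in all 6 libraries was 42 to 46 under the alternatives tried. The mean gap between standard and immune catalytic genes was 18.8 points by fold and -6.86 by −log10 p-value with a −log10 q-value of at least 10, where Psmb8 and Psmb10 were not called in replicate 3. It was 54.7 by fold in equal-length lists, where Psmb8 was not called in Dek_cKO replicate 3, and 13.7 with wider classes. Leaving out 1 library at a time gave 32.4 to 39.6 by fold and 12.6 to 19.7 by −log10 p-value. In the limma rank test by fold, the replicate block gave 1 region higher, and no region was called when a library was left out. By −log10 p-value, 1 region (Tek) was lower with the replicate block and 1 (Tek) with the batch term, and leaving out a library gave 0 to 1, the 1 being Tek without Dek_fl replicate 3. No proteasome gene was called in any of these fits. The rank score difference of Psmc3 by −log10 p-value turned to -0.035 without Dek_cKO replicate 2 and to -0.043 without Dek_fl replicate 3, within a range of -0.043 to 0.313 over left-out libraries; the cause was not tested. The other rank score differences printed in the text kept their sign. The median difference in percentile of fold between genotypes was -2.46 in equal-length lists, and that of −log10 p-value turned to -1.43. Read depth is not known, and the lists of replicate 3 are shorter and start at a higher −log10 p-value than the others.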
